A study of Mus musculus with 74 samples.

Results

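Mice whose lung tumours could be edited by Cas9 were compared with mice that carried the same guides and no nuclease. The comparison took 54 of the 74 mice of the series by the genotype label of each mouse, 45 labelled KT_H11_Cas9 and 9 labelled KT. It asked what a guide pair did to the number of tumours, to their whole size distribution and to their share of the lung's tumour cells when Cas9 was present. After the spike-in entries and the 6178 tumours that carried 1 guide in both places were left out, 117848 tumours of KT;H11-Cas9 mice and 204936 tumours of KT mice remained. The genes were described through tumours in which a targeting guide stood beside an inert guide. There were 25745 such tumours with Cas9 and 40820 without it, over 17 genes, and each value was set against tumours with 2 inert guides, of which there were 1107 and 1466.

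Both groups carried the same tumour-starting background, which the labels shorten to KT and which includes R26LSL-Tomato, a red reporter kept silent by a stop cassette until Cre removes it. A lentiviral pool delivered Cre, a barcode and a guide pair to single lung cells, and lungs were taken after about 3 months. Barcode and guides were then amplified as 1 amplicon from 32 µg of lung DNA and sequenced, so that each barcode stands for 1 tumour. The KT mice had no Cas9, and the others, called Cas9 mice below, had Cas9 at the H11 locus. The growth protocol in the labels names this allele only in forms that need Cre, so the constitutive form is read from the genotype label alone. The labels state no age at infection and no viral dose. Inert guides were the 3 named safe, the 1 named NT and the 1 named EGFP. The guide named NE was kept apart, and its meaning is not given in the labels.

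Lung adenocarcinoma starts from single cells that carry an oncogenic change, and losing a tumour suppressor in the same cell can raise the number of cells that found a tumour, the speed at which the tumour grows, or both. Some genes are instead needed for a cell to divide at all, and cutting them removes tumours. The targeted genes cover RAS regulators (Nf1, Rasa1), p53 and Rb1, the kinase Lkb1, the NRF2 regulator Keap1, Wnt regulators (Apc, Rnf43), chromatin regulators (Setd2, Kmt2a, Kmt2b, Kat7, Meaf6), the cyclins Ccnl1 and Ccnl2, and the replication clamp Pcna. In the pool 10 genes had 2 guides and 7 had 1.

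Cas9 mice held far fewer tumours than KT mice. A KT mouse held 12851 tumours at the lowest, 19156 at the median and 40207 at the highest, and a Cas9 mouse 994, 2531 and 5263. The groups did not overlap, and the log2 difference was -3.10 ± 0.18 (SE, 45 against 9 mice, permutation adjusted p = 2.12e-05). It was -3.12 among mice whose 3 main spike-in entries summed to near 100000 cells (25 against 5) and -3.08 near 300000 cells (20 against 4). Viral dose is unknown, so a difference in dose and an effect of Cas9 on absolute number cannot be told apart, and every gene below is therefore given relative to inert/inert tumours of the same mouse. Such tumours numbered 86 to 304 in a KT mouse and 5 to 51 in a Cas9 mouse. Reads of the listed tumours, without spike-in entries, summed to between 1.43e+06 and 1.12e+07 in a KT mouse and between 118601 and 6.26e+06 in a Cas9 mouse. The smallest tumour listed in a mouse had 50.4 to 56.2 cells in KT and 50.1 to 105 cells with Cas9, so number means the tumours past that size. The letters that begin mouse names, whose meaning is not given in the labels, split the groups unevenly, with SL in 5 KT mice near 100000, LA in 4 KT and 14 Cas9 mice near 300000 and 25 Cas9 mice near 100000, and CM in 6 Cas9 mice near 300000.

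Tumours with 2 inert guides were smaller in Cas9 mice at the median and above it. The median inert/inert tumour had 174 to 574 cells in KT mice (median of the mice 239) and 88.3 to 333 cells in Cas9 mice (median 151). The group ranges overlapped, and 5 of 45 Cas9 mice lay above the KT mean. The 10th percentile lay near the smallest size listed, at 65.8 cells in the median Cas9 mouse and 72.3 in the median KT mouse. The log2 difference between groups was -0.22 ± 0.17 at the 10th percentile, which did not pass (permutation adjusted p = 0.238), and -0.50 ± 0.22 at the 25th (permutation adjusted p = 0.053). It was -0.74 ± 0.20 at the median and -1.15 ± 0.21 at the 75th percentile (permutation adjusted p = 0.00636 and 0.00017), and -1.13 ± 0.23 at the 90th (permutation adjusted p = 0.000198). The 95th percentile, which in most Cas9 mice rests on the 1 or 2 largest inert/inert tumours, differed by -0.89 ± 0.25. All sizes of a gene are therefore relative to a smaller inert tumour in the Cas9 group.

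Tumour cells were spread over tumours in KT mice and gathered in few tumours in Cas9 mice. Summed tumour cells were 8.86e+06 to 3.84e+07 in KT mice and 1.67e+06 to 6.06e+07 in Cas9 mice, ranges that overlapped, with a log2 difference of -1.14 ± 0.28 (permutation adjusted p = 0.00169). The largest tumour of a mouse held 11819 cells at the lowest, 45165 at the median and 1.07e+06 at the highest in KT, and 145076, 953857 and 3.68e+07 with Cas9. Its log2 difference was 4.24 ± 0.69, with 45 of 45 Cas9 mice above the KT mean (permutation adjusted p = 2.12e-05). That tumour was 0.30% of the tumour cells of the median KT mouse and 17.5% of those of the median Cas9 mouse.

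In Cas9 mice inert tumours took a smaller share of the lung burden, and tumours with 2 targeted genes a larger one. In KT mice inert/inert tumours were 0.710% ± 0.033 of the tumours and 0.679% ± 0.097 of the tumour cells (SD, n = 9), so that number and burden gave nearly the same share. In Cas9 mice they were 0.949% ± 0.206 of the tumours and 0.147% ± 0.096 of the cells (SD, n = 45). A gene beside an inert guide likewise took 19.9% ± 0.2 of the tumours and 19.8% ± 0.8 of the cells in KT mice, against 21.9% ± 1.1 and 10.6% ± 5.6 with Cas9. Pairs of 2 different genes took 69.1% ± 0.3 and 69.2% ± 1.2 in KT mice and 65.6% ± 1.6 and 83.5% ± 7.5 with Cas9. The burden share minus the number share differed between groups by -0.77 percentage points for inert/inert, by -11.2 for a gene beside an inert guide and by 17.8 for gene pairs (permutation adjusted p = 2.12e-05 for each). For a gene beside an inert guide, 43 of 45 Cas9 mice lay below the KT mean of that difference, and for gene pairs 45 of 45 lay above it.

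**Figure D1:**
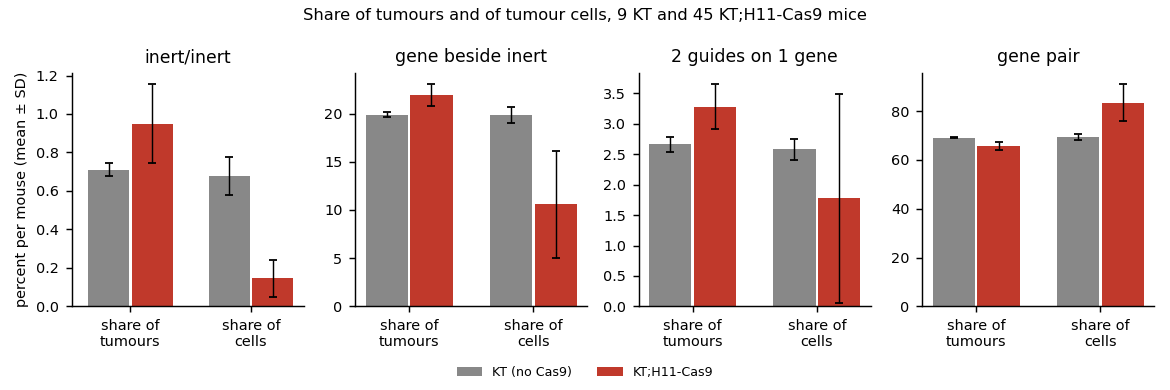
Percent of tumours and percent of tumour cells per mouse for constructs with 2 inert guides, a gene beside an inert guide, 2 guides on 1 gene and a pair of genes, as mean and SD over 9 KT mice (grey) and 45 KT;H11-Cas9 mice (red). The grey bars of a panel are nearly level (19.9% and 19.8% for a gene beside an inert guide), while with Cas9 that class falls from 21.9% of tumours to 10.6% of cells and gene pairs rise from 65.6% to 83.5%.

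Relative tumour number was the log2 of a gene's tumours over inert/inert tumours in the same mouse, with 0.5 added to both counts, and its value in KT mice gives the share of the gene's viruses in the pool. The KT mice lay closest together for Pcna (SD 0.09 over 9 mice) and the genes with 2 guides that are named here (SD 0.07 to 0.10). For the other genes with 1 guide the SD was wider, from 0.19 (Ccnl1) to 0.27 (Meaf6). The mean for each gene differed between KT mice of the 2 spike-in totals by -0.10 to 0.12. Relative number differed between the groups for 13 of the 17 genes, higher with Cas9 for 4 and lower for 9 (permutation of mouse labels, Benjamini-Hochberg over 164 genotypes that include gene pairs and 2 guides on 1 gene, adjusted p under 0.05). Over all 164 genotypes 70.7% were called, 15.9% higher and 54.9% lower, so the share of genes called was close to that background. The median of the 17 differences was -0.17, and that of all genotypes -0.50. Nf1, p53 and Rasa1 were among those that rose, and Pcna, Lkb1, Kmt2b, Keap1, Apc, Meaf6, Kat7, Setd2 and Rnf43 fell. Rb1, Ccnl1, Ccnl2, Kmt2a and the guide NE did not pass. The split depends on the denominator: over all listed tumours of a mouse instead of inert/inert, 9 of the 17 were higher and 5 lower, and the median of all genotypes moved from -0.50 to -0.09. With that denominator 130 of all 164 genotypes were called. Setd2 and Rnf43 change sign under that scaling, and so do the uncalled differences of Rb1, Ccnl1, Ccnl2 and Kmt2a. All genes share 1 inert/inert count per mouse, so their values are not independent, and 1 mouse, Cas9 replicate 38 with 5 inert/inert tumours, gave the highest Cas9 value for 13 of the 17 genes. In simulated tumours 86 of 1920 unchanged genotypes were called in number.

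**Figure D2:**
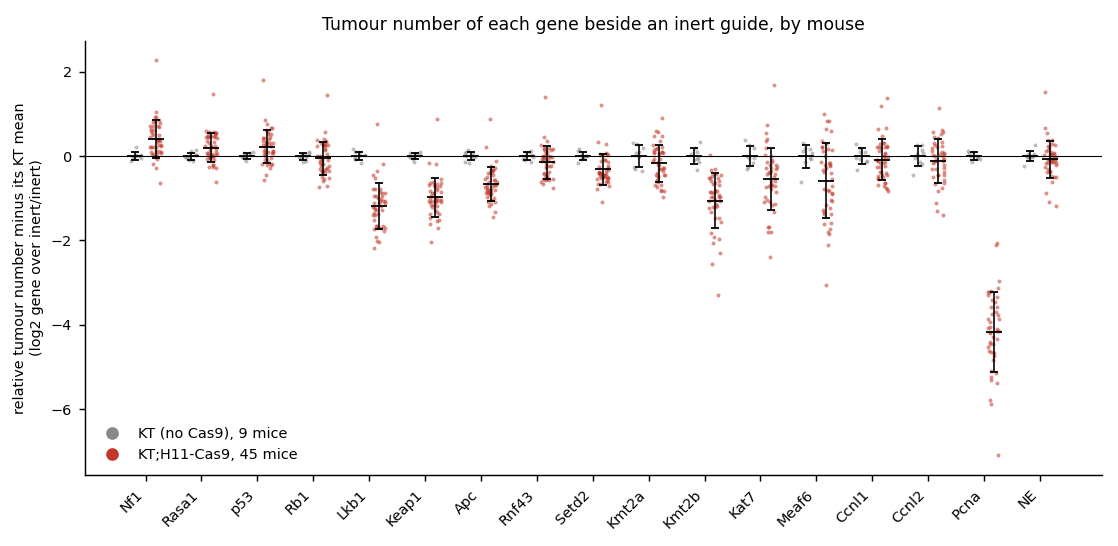
Relative tumour number (log2 of a gene's tumours over inert/inert tumours) of each mouse, minus the KT mean of the gene, for 9 KT mice (grey) and 45 KT;H11-Cas9 mice (red), with mean and SD as black bars. The red points of Pcna lie apart from the grey ones, with a mean of -4.16, while for every other gene shown the groups overlap. Groups also lay apart for 16 of 136 gene pairs, which are not shown. Setd2 and Rnf43, below 0 here, lie above it when all listed tumours are the denominator.

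No gene passed in the middle of the size distribution. Relative median size was the log2 of a gene's median tumour over the inert/inert median in the same mouse, for mice with at least 5 of each. Both medians are of listed tumours only, and the smallest listed in a Cas9 mouse had 50.1 to 105 cells. Of the 17 genes 0 passed, beside a background of 0% of 121 genotypes (permutation test, 2 genes and 19 genotypes at an unadjusted p under 0.05). The differences of the 17 genes ran from -0.62 to 0.28 with a median of 0.01, and that of all genotypes was -0.00. With mean log2 cells in place of the median, 5 genes passed, 4 higher and 1 lower, with Nf1, p53 and Rasa1 among those higher and Pcna lower, and with NE counted as inert 3 were higher. Over all genotypes these 2 settings called 31 of 121 and 17 of 120, and the median differences were 0.16 and 0.13. Relative burden was the log2 of a gene's summed cells over those of inert/inert. In it 10 of 17 genes passed, 7 higher and 3 lower, beside a background of 54.3% of 164 genotypes (24.4% higher and 29.9% lower). The share of genes called in either direction was thus close to that background. In simulated tumours 117 of 1917 unchanged genotypes were called in burden. Nf1, p53, Lkb1, Rasa1, Setd2 and Rb1 were among those that rose, and Pcna, Kmt2b and Keap1 fell. The median over the 17 was 0.42, and over all genotypes -0.03. The split again depends on the setting: as a share of all tumour cells of the mouse 0 genes were higher and 16 lower, with the median of all genotypes at -2.59, and with the largest tumour of each genotype and mouse left out 5 were higher and 7 lower. Over all genotypes these 2 settings called 148 of 164 and 106 of 151. With the largest tumour left out the median of all genotypes was -0.65. Every gene named as rising in relative burden fell as a share of all tumour cells.

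**Figure D3:**
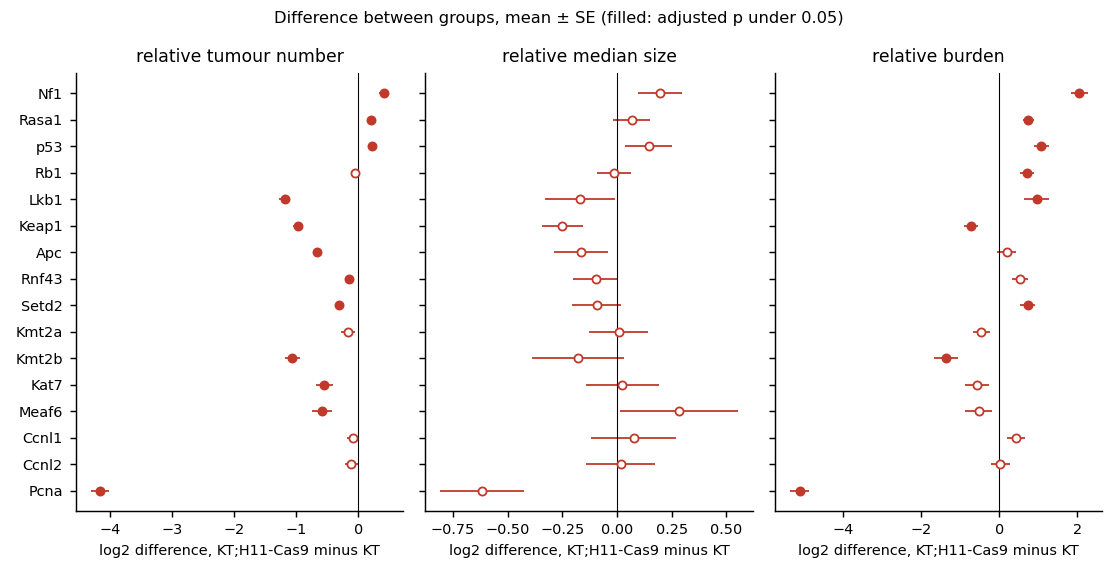
Difference between groups (KT;H11-Cas9 minus KT, log2, mean and SE) in relative tumour number, relative median size and relative burden for 16 genes, each relative to inert/inert tumours of the same mouse, with filled points where the adjusted p was under 0.05. Number and burden part ways for Lkb1 (-1.19 and 0.95), Setd2 (-0.32 and 0.72) and Rb1 (-0.05 and 0.71), while no median is called. As a share of all tumour cells instead of over inert/inert, the burden of each of these 3 genes is lower with Cas9.

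The upper part of the distribution was read at the 90th percentile, for mice with at least 20 tumours of the gene and of inert/inert, a condition that 11 genes and at most 33 Cas9 mice met. It was called higher for 3 of the 11, Nf1 (0.69 ± 0.18) and p53 (0.43 ± 0.15) among them, beside a background of 40% of 55 genotypes. The median difference over those 55 genotypes was 0.54, so the value of p53 lay below it and that of Nf1 above it. All genotypes of a mouse share 1 inert/inert percentile that rests on few tumours, and in simulated tumours with no change it moved all genotypes together, in some draws by as much as the value of p53 and with some of them called. These counts are therefore given as a description of the measure and not as firm rises of single genes. At the 95th percentile, to which the same applies, 4 of 11 were higher beside a background of 54.5%, with Nf1, Lkb1 and Setd2 among them. The median difference over all genotypes was 1.01 there, so Nf1 (0.90) and Setd2 (0.88) lay below it and Lkb1 (2.08) above it. Within mice of 1 spike-in total, 0 genes passed at the 90th percentile near 100000 cells (2 at an unadjusted p under 0.05) and 0 near 300000 cells (2 unadjusted). Of all genotypes 0 of 53 and 1 of 59 passed there. These calls therefore rest on all mice together, and without Cas9 replicate 25 the count was 5, with Rb1 and Setd2 added. Ccnl1, Kat7, Kmt2a, Kmt2b, Meaf6 and Pcna had too few tumours per mouse for these measures. At the 75th percentile, which asked for only 5 tumours of both kinds in a mouse, all 17 genes had a value, and 3 were higher and 1 lower, beside a background of 15.7% of 121 genotypes (12.4% higher and 3.31% lower). Nf1 was higher by 0.57 ± 0.12 and p53 by 0.37 ± 0.10, each over 45 Cas9 mice (permutation adjusted p = 0.0103 and 0.0272), and Pcna fell by 0.86 ± 0.24 over 13 Cas9 mice (permutation adjusted p = 0.0236). The median over all genotypes was 0.28 there. The far tail was described over the tumours of all mice together, with no test: tumours of at least 10000 cells were 0 of 1107 inert/inert tumours with Cas9 and 1 of 1466 in KT. A count of 0 leaves room for a share up to about 0.271% (3 of 1107) if tumours are independent. Tumours that share a mouse may not meet that condition. Among tumours with a gene beside an inert guide, those of at least 10000 cells were 1.49% with Cas9 (384 tumours) and 0.220% in KT (90 tumours). Counting all 17 genes, 9.72% of those tumours had at least 1000 cells with Cas9, against 5.60% of inert/inert, and in KT these shares were 17.5% and 17.1%.

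Nf1 and Rasa1 encode GTPase-activating proteins that switch RAS off. In single mice the ratio of Nf1 to inert/inert tumours was 1.99 at the lowest, 2.16 at the median and 2.51 at the highest in KT, and 1.39, 2.81 and 10.5 with Cas9. Most Cas9 mice lay above the KT mice although the ranges overlapped, and 40 of 45 were above the KT mean. Nf1 rose in number by 0.41 ± 0.07 on the log2 scale, 1.33-fold (permutation adjusted p = 7.24e-05), and by 0.36 and 0.47 within mice near 100000 and near 300000 cells. Its relative median differed by 0.19 ± 0.10 (permutation adjusted p = 0.372), while its mean log2 cells rose by 0.46. The ratio was larger at larger sizes: summed over mice, Nf1 tumours were 1.36 times as frequent relative to inert/inert with Cas9 as without among all tumours, 2.16 times at 500 cells or more and 3.79 times at 2000 cells or more (3.06 to 4.68 within 1 jackknife SE). These summed ratios were not tested. In the test by mouse at 500 cells or more, 0 of the 17 genes were called higher and 7 lower, beside 85 of 164 genotypes called. At 2000 cells every gene shares a denominator of 26 inert/inert tumours with Cas9 and 99 in KT. Every gene named here but Kmt2a and Pcna had a higher ratio there than among all tumours. So did NE, at 1.17 against 0.940 times, and the cause of this shared rise was not tested. Nf1 had 68 tumours of at least 10000 cells with Cas9 and 5 in KT. Its relative burden ranged from 1.81 to 2.38 times inert/inert in KT mice (median 2.14) and from 1.86 to 160 times in Cas9 mice (median 6.52). That is a rise of 2.05 ± 0.21, 4.13-fold, with 43 of 45 mice above the KT mean (permutation adjusted p = 0.000121), and it was 1.59 without the largest tumour.

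Rasa1 rose too. Its ratio to inert/inert tumours was 1.89 to 2.25 in KT mice (median 2.03) and 1.35 to 5.73 in Cas9 mice (median 2.32), with wide overlap and 32 of 45 Cas9 mice above the KT mean. The rise was 0.20 ± 0.06, 1.15-fold (permutation adjusted p = 0.0083). It was 0.19 and 0.22 within the 2 spike-in totals, where neither passed alone (permutation adjusted p = 0.113 and 0.0841), and edgeR's quasi-likelihood test did not call it. Its relative median differed by 0.07 ± 0.09, and its mean log2 cells rose by 0.21, close to the median of 0.16 over all genotypes. Rasa1 tumours were 1.14 times as frequent as without Cas9 among all tumours, 1.57 times at 500 cells or more and 2.13 times at 1000 or more (1.85 to 2.44 within 1 jackknife SE). Its burden rose by 0.74 ± 0.14 (permutation adjusted p = 0.000475), by 0.80 and 0.67 within the spike-in totals, and by 0.76 without the largest tumour.

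The gene p53 encodes the transcription factor that stops or kills damaged cells, and Rb1 the protein that holds cells before DNA synthesis. The ratio of p53 to inert/inert tumours was 2.47 to 2.88 in KT mice (median 2.66) and 1.82 to 9.36 in Cas9 mice (median 3.17), with overlap and 33 of 45 Cas9 mice above the KT mean. It rose by 0.22 ± 0.06, 1.17-fold (permutation adjusted p = 0.00532), by 0.17 near 100000 cells (permutation adjusted p = 0.156) and by 0.29 near 300000 cells (permutation adjusted p = 0.0271), and edgeR did not call it. Its relative median differed by 0.14 and its mean log2 cells rose by 0.28, where the median over all genotypes was 0.16. The 90th percentile differed by 0.43 ± 0.15 over 33 Cas9 mice (permutation adjusted p = 0.0154), less than the median of 0.54 over all genotypes. Relative burden rose by 1.08 ± 0.18, 2.11-fold, with 42 of 45 mice above the KT mean (permutation adjusted p = 0.000205).

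Rb1 did not pass in number, and its burden rose. The ratio of Rb1 to inert/inert tumours was 1.60 to 1.89 in KT mice (median 1.74) and 1.06 to 4.82 in Cas9 mice (median 1.65), a difference of -0.05 ± 0.07 (permutation adjusted p = 0.48). The median differed by -0.01, but from 0.973 times the KT frequency among all tumours Rb1 came to 1.46 times at 1000 cells or more and 1.81 times at 2000 or more (1.43 to 2.30 within 1 jackknife SE). Rb1 had 28 tumours of at least 10000 cells with Cas9 and 3 in KT. Its relative burden was 1.46 to 2.21 times inert/inert in KT mice (median 1.80) and 0.777 to 32.5 times in Cas9 mice (median 2.85), with 33 of 45 Cas9 mice above the KT mean. The rise was 0.71 ± 0.18 (permutation adjusted p = 0.00724). It was 0.72 and 0.69 within the 2 spike-in totals, with permutation adjusted p = 0.0608 and 0.152.

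**Figure D4:**
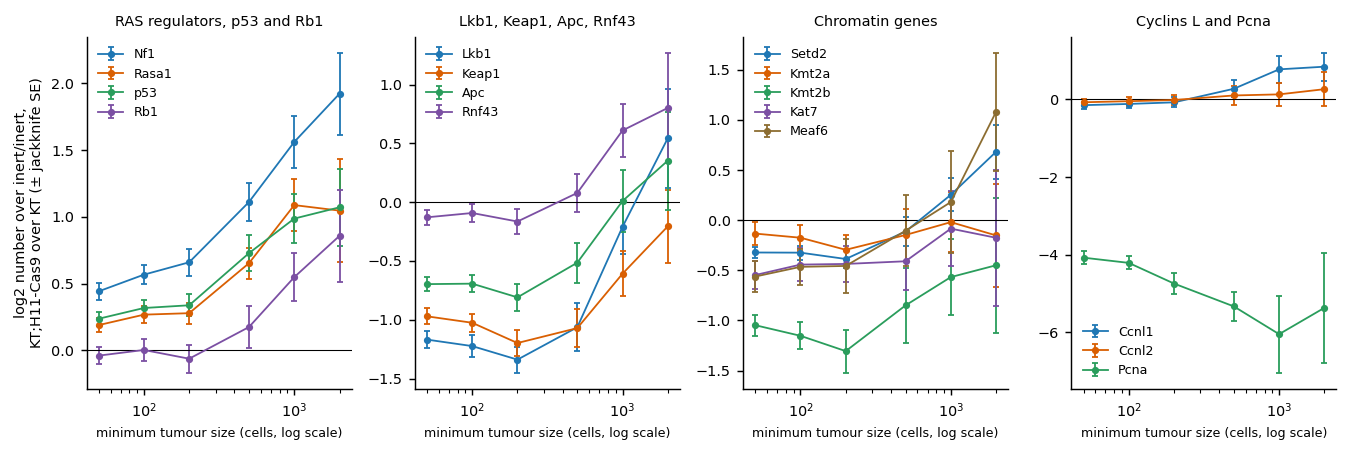
Tumours of each gene over inert/inert tumours at or above a minimum size (cells, log axis), summed over mice, as log2 of KT;H11-Cas9 over KT with a delete-one-mouse jackknife SE, at 50, 100, 200, 500, 1000 and 2000 cells. Nf1 climbs from 0.44 to 1.92 and Lkb1 from -1.17 to 0.54, whereas Pcna drops from -4.08 to -6.05 at 1000 cells. All genes shown but Kmt2a and Pcna lie higher at 2000 than at 50 cells, where the points rest on 26 inert/inert tumours with Cas9 and 99 in KT at 2000 cells. The vertical axes differ between panels.

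Lkb1, the label's name for Stk11, encodes a kinase that activates AMPK and related kinases. Its number fell while the upper end of its sizes and its burden rose. The ratio of Lkb1 to inert/inert tumours was 1.86 to 2.33 in KT mice (median 2.12) and 0.458 to 3.55 in Cas9 mice (median 0.915), and 1 of 45 Cas9 mice lay above the KT mean. Number fell by 1.19 ± 0.09, 0.440-fold (permutation adjusted p = 2.78e-05), with -1.28 and -1.07 within the spike-in totals. The median Lkb1 tumour did not pass, at -0.17 ± 0.16, and neither did the 90th percentile, at 0.10 ± 0.36 over 20 Cas9 mice. The 95th percentile was 2.08 ± 0.44 higher, 4.22-fold, in 18 of 20 Cas9 mice above the KT mean (permutation adjusted p = 0.00378). Over the tumours of all Cas9 mice, Lkb1 was 0.915 times inert/inert at the median, 1.70 times at the 90th percentile, 6.74 times at the 95th and 19.5 times at the 99th. The same ratios in KT were 1.04, 1.05, 0.948 and 0.974. Lkb1 tumours were 0.445 times as frequent with Cas9 as without among all tumours, 0.395 times at 200 cells or more, 0.865 times at 1000 or more and 1.46 times at 2000 or more (1.09 to 1.95 within 1 jackknife SE). There were 46 of at least 10000 cells with Cas9 and 3 in KT. Relative burden rose by 0.95 ± 0.32, 1.94-fold (31 of 45 mice above the KT mean, permutation adjusted p = 0.0238), but was -0.58 ± 0.26 without the largest tumour of each genotype and mouse (permutation adjusted p = 0.0736). The median of all genotypes was -0.65 with that tumour left out. Within the spike-in totals the relative burden of Lkb1 was 1.04 and 0.84, and neither passed (permutation adjusted p = 0.123 and 0.231).

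**Figure D5:**
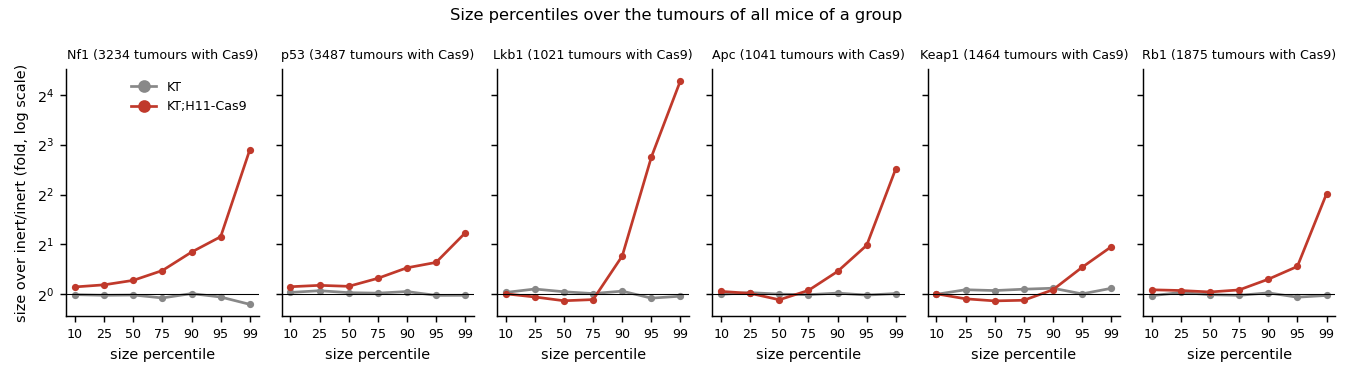
Size of tumours with a gene beside an inert guide over inert/inert size at the same percentile, over the tumours of all mice of a group, for KT (grey) and KT;H11-Cas9 (red), on a log2-spaced axis for 6 genes. The grey lines stay near 1, and the red line of Lkb1 is 0.915 at the median and 19.5 at the 99th percentile, against 1.21 and 7.46 for Nf1.

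Keap1 encodes the adaptor through which the transcription factor NRF2 is marked for degradation. Its ratio to inert/inert tumours was 2.37 to 2.79 in KT mice (median 2.58) and 0.639 to 4.82 in Cas9 mice (median 1.28), and 1 of 45 Cas9 mice was above the KT mean. Number fell by 0.97 ± 0.07, 0.509-fold (permutation adjusted p = 2.78e-05), with -1.02 and -0.92 within the spike-in totals. Its relative median differed by -0.25 ± 0.09, which did not pass (unadjusted permutation p = 0.0159, adjusted 0.24), and the 90th percentile differed by -0.14 ± 0.17. Keap1 tumours were 0.510 times as frequent as without Cas9 among all tumours, 0.436 times at 200 cells or more and 0.867 times at 2000 or more (0.700 to 1.07 within 1 jackknife SE). Relative burden fell by 0.73 ± 0.18, 0.604-fold (permutation adjusted p = 0.00226), and by 0.70 and 0.76 within the spike-in totals (permutation adjusted p = 0.0521 and 0.0704).

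Apc, the scaffold of the complex that destroys beta-catenin, and Rnf43, a ubiquitin ligase that removes Wnt receptors, both restrain Wnt signalling. The ratio of Apc to inert/inert tumours was 1.36 to 1.69 in KT mice (median 1.53) and 0.564 to 2.82 in Cas9 mice (median 0.927), with 2 of 45 Cas9 mice above the KT mean. Number fell by 0.67 ± 0.07, 0.629-fold (permutation adjusted p = 2.78e-05), and the within-total values were both -0.67. The relative median was -0.16 ± 0.12, the 95th percentile 1.09 ± 0.42 higher (permutation adjusted p = 0.0525), and over all Cas9 tumours the 99th percentile was 5.74 times inert/inert. At the 95th percentile the median difference over all genotypes was 1.01, close to the value of Apc. From 0.617 times the KT frequency among all tumours Apc came to 1.01 times at 1000 cells or more and 1.28 times at 2000 or more, with 1 jackknife SE on either side spanning 0.957 to 1.70. Relative burden did not pass at 0.19 ± 0.24, and its sign differed between the totals, with 0.69 near 100000 and -0.45 near 300000 cells. Without the largest tumour of each genotype and mouse it was -0.47 (permutation adjusted p = 0.0147), where the median of all genotypes was -0.65.

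Rnf43 passed narrowly. Its ratio to inert/inert was 2.28 to 2.73 in KT mice (median 2.52) and 1.49 to 6.64 in Cas9 mice (median 2.33). The difference was -0.15 ± 0.07 (permutation adjusted p = 0.0466). That call was lost when any of 27 of the 54 mice was left out (6 of the 9 KT mice among the 27), under edgeR and within each spike-in total, and the sign turned over all listed tumours. Over all 54 omissions its permutation adjusted p ran from 0.016 to 0.0749. Relative burden was 0.53 ± 0.20 and did not pass (permutation adjusted p = 0.0636). Rnf43 had 24 tumours of at least 10000 cells with Cas9 and 11 in KT.

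Of the 5 chromatin regulators, 4 fell in number relative to inert/inert and Kmt2a did not pass, where 54.9% of all 164 genotypes were called lower. Setd2, a histone methyltransferase that works along transcribed genes, had a ratio of 2.15 to 2.69 in KT mice (median 2.40) and of 1.13 to 5.55 in Cas9 mice (median 1.82), with 9 of 45 Cas9 mice above the KT mean. Number fell by 0.32 ± 0.06 relative to inert/inert, 0.803-fold (permutation adjusted p = 0.00044), and by 0.35 and 0.27 within the spike-in totals, but over all listed tumours the value was 0.09. Its relative median differed by -0.09, and its 95th percentile was 0.88 ± 0.28 higher (permutation adjusted p = 0.0197). That rise was less than the median difference of 1.01 over all genotypes at the 95th percentile. Setd2 tumours were 0.800 times as frequent as without Cas9 among all tumours and 1.60 times at 2000 cells or more (1.33 to 1.93 within 1 jackknife SE). There were 33 of at least 10000 cells with Cas9 and 11 in KT. Relative burden rose by 0.72 ± 0.19, 1.65-fold (35 of 45 mice above the KT mean, permutation adjusted p = 0.00885), and was 0.37 without the largest tumour (permutation adjusted p = 0.059).

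Of the paralogous histone methyltransferases Kmt2a and Kmt2b, which act at promoters, Kmt2b fell and Kmt2a did not pass. The ratio of Kmt2b to inert/inert tumours was 0.383 to 0.607 in KT mice (median 0.467) and 0.0492 to 0.486 in Cas9 mice (median 0.247), with 1 of 45 Cas9 mice above the KT mean. It fell by 1.06 ± 0.12, 0.479-fold (permutation adjusted p = 2.78e-05), and by 1.26 and 0.82 within the spike-in totals. Kmt2a had 0.333 to 0.526 in KT mice (median 0.450) and 0.216 to 0.797 in Cas9 mice (median 0.368), and its difference of -0.17 ± 0.11 did not pass (permutation adjusted p = 0.18). A difference between the paralogs themselves was not tested. The relative burden of Kmt2b fell by 1.37 ± 0.31 (permutation adjusted p = 0.00128), and with KT mice thinned to 24 inert/inert tumours, the Cas9 median, by 1.25. A Cas9 mouse held 5 Kmt2b tumours at the median, and a KT mouse 73.

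Kat7, an acetyltransferase, and Meaf6, a subunit of acetyltransferase complexes that include Kat7, both fell in number. Kat7 had a ratio of 0.298 to 0.477 in KT mice (median 0.355) and 0.0698 to 1.18 in Cas9 mice (median 0.263), and fell by 0.55 ± 0.13 (8 of 45 mice above the KT mean, permutation adjusted p = 0.000868). Meaf6 had 0.139 to 0.265 in KT mice (median 0.224) and 0.0256 to 0.422 in Cas9 mice (median 0.161), and fell by 0.58 ± 0.16 (12 of 45, permutation adjusted p = 0.00831). Near 100000 cells the values were -0.71 for Kat7 and -0.78 for Meaf6, both called. Near 300000 cells they were -0.35 and -0.34, neither of them called (permutation adjusted p = 0.134 and 0.282). The burden of neither passed, at -0.57 ± 0.31 and -0.53 ± 0.34.

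Ccnl1 and Ccnl2 encode cyclins L, partners of kinases that act in transcription and splicing. The ratio of Ccnl1 to inert/inert tumours was 0.306 to 0.469 in KT mice (median 0.373) and 0.217 to 1 in Cas9 mice (median 0.351), and that of Ccnl2 was 0.509 to 0.843 (median 0.724) and 0.265 to 1.55 (median 0.657). The groups overlapped throughout, and the differences of -0.09 ± 0.10 and -0.11 ± 0.11 did not pass (permutation adjusted p = 0.436 and 0.377). Their medians differed by 0.08 ± 0.20 and 0.02 ± 0.16. Their burdens, at 0.42 ± 0.23 and 0.02 ± 0.24, did not pass either. At 1000 cells or more Ccnl1 had 36 tumours with Cas9 and 85 in KT, 1.71 times its KT frequency relative to inert/inert, with a jackknife SE of 0.36 on the log2 scale.

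Pcna, the sliding clamp of DNA replication, lost most of its tumours. It was the most frequent gene named here in the KT pool, with a ratio of 2.63 to 3.15 (median 2.89), and with Cas9 the ratio was 0.0213 to 0.697 (median 0.165). These ranges did not overlap, the only such gene among the 17. The groups also did not overlap for 16 of 136 gene pairs and 2 of 10 genotypes with 2 guides on 1 gene. Number fell by 4.16 ± 0.14, 0.0558-fold (0 of 45 mice above the KT mean, permutation adjusted p = 2.78e-05), with -4.53 and -3.71 within the spike-in totals. In all, 190 Pcna tumours were listed in 45 Cas9 mice and 4256 in 9 KT mice. The relative median over 13 Cas9 mice was -0.62 ± 0.19 (unadjusted permutation p = 0.0043, adjusted 0.13), mean log2 cells fell by 0.53, and over all Cas9 tumours the 95th percentile was 0.517 times inert/inert. Leaving out Cas9 replicate 8 brought the median past the threshold, with a permutation adjusted p of 0.0194. At 1000 cells or more there were 3 Pcna tumours with Cas9 and 807 in KT, and 1 of the 3 had 64500 cells. Relative burden fell by 5.12 ± 0.25 over the 44 Cas9 mice with a Pcna tumour (permutation adjusted p = 6.83e-05).

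Of the 10 genes with 2 guides, both guides had the same call in relative number for 6. The guides of Rasa1, p53, Rb1 and Setd2 were 0.02, 0.06, 0.06 and 0.10 apart on the log2 scale. Of 27 targeting guides 18 changed in relative number, 6 higher and 12 lower, beside a background of 57.6% of all 33 guides (18.2% higher and 39.4% lower), and 0 of 27 changed in relative median (background 0%, 3 targeting guides at an unadjusted p under 0.05). The guides farthest apart in number were those of Keap1, at -0.42 ± 0.08 for V1 and -1.83 ± 0.10 for V2, both called. Those of Lkb1 followed, at -1.73 ± 0.11 and -0.73 ± 0.09, and they were also the farthest apart in median size, at 0.01 ± 0.23 and -0.25 ± 0.15, neither called. Apc fell by 1.01 ± 0.08 with V2 (permutation adjusted p = 5.5e-05), and V1 was at -0.22 ± 0.10 (permutation adjusted p = 0.0507). Rasa1 was at 0.19 ± 0.09 with V1, which did not pass, and at 0.21 ± 0.07 with V2, which did (permutation adjusted p = 0.0721 and 0.018). Rnf43 was at -0.06 ± 0.08 with V1 and fell by 0.23 ± 0.07 with V2 (permutation adjusted p = 0.581 and 0.0125). The difference between 2 guides of a gene was not tested.

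The inert guides and NE were measured in the same way. Each inert guide was set against the inert/inert tumours that did not hold it. NT, EGFP, safe V2 and safe V3 differed by -0.19 to 0.04 and were not called. The guide safe V1, present in most inert/inert tumours, was at -0.52 ± 0.14 and was called lower, but this could be computed in 21 of 45 Cas9 mice, those with at least 5 inert/inert tumours without it. Summed over all mice, tumours with safe V1 over those without it differed between groups by 0.03 ± 0.14 (jackknife SE), and for the other 4 the range was -0.21 to 0.12. NE beside an inert guide was at -0.08 ± 0.08 in number, -0.19 ± 0.15 in median size and -0.01 ± 0.18 in burden, none of which passed. Among tumours of at least 200 cells, however, 2 of these controls were called lower in number. NE was at -0.37 ± 0.13 over 39 Cas9 mice and safe V2 at -0.44 ± 0.17 over 20 (permutation adjusted p = 0.0186 and 0.0383), differences no smaller than that of Setd2 over all sizes.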

How the data were processed

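Tumours came from the deposited table, in which each tumour has its mouse, its 2 guides, its read count and a signal, the cells that the authors estimated from spike-in barcodes. Within a mouse, the deposited cell signal was the read count times 1 factor, checked on the values, and the lowest read count of a tumour was 3. The sources used here do not say how barcodes were clustered and filtered. Groups came from the labels. The members and lists were chosen with earlier results of these data known.

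Each measure was computed within a mouse, relative to inert/inert tumours, for mice with at least 5 of these (at least 5 tumours of both kinds for medians, 20 for the 90th percentile). Mice were the replicates. Groups were compared by permuting mouse labels 100000 times, 2-sided, with the difference of means over its standard error, so that 1e-05 is the smallest p. Values were adjusted by Benjamini-Hochberg over the genotypes with enough mice for a measure, with a call under 0.05. These were 164 for number and burden, 121 for the median and 75th percentile, and 55 for the 90th and 95th. Guides were adjusted over 33, and the whole-mouse measures among themselves. Where under 5 mice of a group had a value, no test was made, and 3 mice sufficed within a batch. Percentiles used the midpoint (Hazen) definition, chosen after simulated data showed that linear interpolation was biased at few tumours. Thinning of KT mice, 20 draws, was also added after seeing the data. All genes beside inert guides were to be named, and of guides the pairs of which 1 passed and those farthest apart. One gene is not reported here. Scripts were tested on 20 sets of simulated data with known changes. Simulated counts held no variation between mice beyond Poisson draws around each mouse's total, and no smallest listed size was applied. The simulations therefore cannot show how a smallest listed size alters the recovery of number or median. Estimates lay close to the true values on average, but in single sets the shared inert/inert denominator moved all genotypes together, most at the 90th and 95th percentiles. Unchanged genotypes were called in 19 of 20 sets for number (86 of 1920) and in 20 for burden (117 of 1917). At the 90th percentile this was so in 4 sets and at the 95th in 2 (11 of 283 each). Burden of unchanged genotypes came out somewhat low. Tools were Python 3.11.15, numpy 2.4.6, pandas 2.3.3, scipy 1.17.1, matplotlib 3.10.9 and R 4.3.3 with edgeR 4.0.16, whose quasi-likelihood test on tumour counts was an alternative.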

Additional observations from a re-analysis of the deposited data

Results flagged for a closer look

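Among the 9 KT mice, 76 sets of values were checked for a mouse far from the others, and 4 had 1, where chance gives about 1 in 20. The gap between the extreme mouse and its nearest neighbour was large against the range of the group in each. Relative tumour number of Nf1 was 1.33 in KT replicate 1, with the next highest mouse at 1.14. Relative tumour number of Meaf6 was -2.85 in KT replicate 6, with the next lowest at -2.38. The relative 90th percentile of Ccnl1 was 0.71 in KT replicate 5, with the next highest at 0.05. Summed tumour cells of KT replicate 2 were 25.19 on the log2 scale, with the next highest mouse at 23.95. Leaving out each of these mice changed no call of Nf1 or Meaf6 in number.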

How the results depend on the processing

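Relative number changed 13 of 17 genes, 7 at 500 cells or more (0 higher and 7 lower), 8 with a plain difference of means as the statistic, 10 by edgeR, 10 and 9 within mice near 100000 and near 300000 cells, and 10 to 14 under the other settings. Of all 164 genotypes 116 were called, 85 at 500 cells or more, 90 with the plain difference and 111 by edgeR. Within mice near 100000 and near 300000 cells it was 94 and 87, and under the other settings 94 to 130 of 163 to 170. Over all listed tumours the sign turned for Ccnl1 (0.32), Ccnl2 (0.30), Kmt2a (0.24), Rb1 (0.36), Rnf43 (0.26) and Setd2 (0.092). The median, with 0 genes, gave 3 with NE as inert, 1 with gene guides in place 2 and 5 with mean log2 cells. Of all genotypes these settings called 17 of 120, 1 of 120 and 31 of 121. The 90th percentile, with 3 of 11, gave 0 with the plain difference and within either spike-in total, 1 in mice named LA and with guides in place 2, 5 with only safe as inert, with at least 10 tumours and with linear interpolation, and 9 with NE as inert. Of all genotypes it called 22 of 55, and in the order of these settings 1 of 55, 0 of 53 and 1 of 59. Mice named LA gave 12 of 63 and guides in place 2 gave 20 of 51. The last 4 settings gave 24 of 45, 39 of 81, 26 of 55 and 38 of 55. Burden, with 10, gave 2 at 500 cells or more, 6 with the plain difference and near 100000 cells, 5 near 300000 cells and 16 as a share of all tumour cells. Of all genotypes burden called 89 of 164, 20 of 107 at 500 cells or more and 43 of 164 with the plain difference. Within the 2 totals it called 43 of 161 and 53 of 164, and 148 of 164 as a share of all tumour cells. That share reversed Apc (-2.37), Ccnl1 (-2.13), Ccnl2 (-2.54), Lkb1 (-1.60), Nf1 (-0.51), Rasa1 (-1.81), Rb1 (-1.85), Rnf43 (-2.03), Setd2 (-1.83) and p53 (-1.48), and leaving out the largest tumour reversed Apc (-0.47) and Lkb1 (-0.58). The medians of all genotypes under these 2 settings were -2.59 and -0.65. The cause of these changes was not tested. Leaving out each of 54 mice gave 12 to 13 genes in number, 0 to 1 in median, 3 to 5 at the 90th percentile and 10 to 11 in burden. The calls it changed were Rnf43 in number, Pcna in median (without Cas9 replicate 8), Rb1 and Setd2 at the 90th percentile (both without Cas9 replicate 25, then called at an adjusted p of 0.0441 and 0.0474) and Kmt2a in burden (without KT replicate 7, then called at 0.0271). A minimum of 1000 cells gave no value for any measure of a gene, nor did NT and EGFP alone as inert, and the 90th percentile gave none at 200 or 500 cells, since too few tumours per mouse remained. No paired analysis was possible because replicate numbers were given in accession order and pair no mice. Depth limits what can be read for rare genes, such as Meaf6 with 3 tumours in the median Cas9 mouse.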
